A study of Mus musculus with 8 samples.

Results

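The lipid droplet coat and CIDE genes were followed in mouse liver: the 3 CIDE genes *Cidea*, *Cideb* and *Cidec*, the 4 perilipin genes *Plin2*, *Plin3*, *Plin4* and *Plin5*, and the droplet-linked genes *Clstn3* and *Hsd17b13*. The 9 genes were chosen by symbol from the 38283 genes of the expression table, with their differences between genotypes in these same libraries already known, so their genotype differences are given here as a description without a test. Of the 9 genes, 8 had more than 1 FPKM (a level corrected for transcript length and for sequencing depth) in at least 1 library and were among the 11634 genes tested, and *Cidea* was not.

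Liver RNA came from C57BL/6 males of 2 genotypes on 2 diets. RORα LKO mice (Alb-cre;RORa f/f) lose exons 4 and 5 of *Rora*, the gene of the nuclear receptor RORα, wherever the Albumin promoter drives Cre, that is in hepatocytes, and the other liver cells keep the gene. Their RORα f/f littermates carried the same floxed alleles. From the age of 8 weeks the mice ate a control diet (CD) or a high-fat diet (HFD), and the diet lasted 10 weeks. Each of the 4 groups had 2 libraries, and livers of 2 mice went into each.

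A lipid droplet is a core of triglyceride and sterol ester under a single phospholipid layer, and proteins that sit in this layer decide how the core is stored and used. Perilipins coat the droplet and control the access of lipases to the core. CIDE proteins gather where droplets touch and pass lipid from the smaller to the larger droplet, which yields large droplets, and in hepatocytes CIDEB also serves the loading of lipid onto lipoproteins. *Cidec* and *Plin4* are best known from adipocytes, where the nuclear receptor PPARγ drives them, whereas PLIN2 is the main coat of hepatocyte droplets.

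The 8 libraries each held between 10587 and 10706 genes above 1 FPKM. The table gives no read counts, so the depth behind a value is unknown here, and the 2 libraries of a group limit the precision. The whole-gene FPKM of *Rora* did not check the genotype labels, since only exons 4 and 5 are removed: it was 8.85 and 8.59 in CD-fed RORα f/f, 7.96 and 8.18 in CD-fed RORα LKO, 7.56 and 7.86 in HFD-fed RORα f/f and 7.30 and 8.02 in HFD-fed RORα LKO. Some abundant transcripts, *Alb* among them, were listed at 0 in some libraries, so a listed 0 may be a failed estimate. Of the 9 genes this concerned *Cidea* alone.

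By mean level over the 8 libraries, *Hsd17b13* (292 FPKM), *Plin2* (255 FPKM) and *Cideb* (205 FPKM) stood at ranks 249, 282 and 355 of the 11634 genes. *Plin5* (20.4 FPKM), *Plin3* (13.2 FPKM), *Clstn3* (9.90 FPKM), *Plin4* (6.21 FPKM) and *Cidec* (4.87 FPKM) were far lower. The spread among the libraries differed from gene to gene. The highest library exceeded the lowest 7.65-fold for *Cidec*, 5.49-fold for *Plin4*, 3.01-fold for *Plin2* and 2.90-fold for *Clstn3*, against 1.51-fold for *Plin5*, 1.34-fold for *Plin3*, 1.21-fold for *Cideb* and 1.14-fold for *Hsd17b13*.

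**Figure D1:**
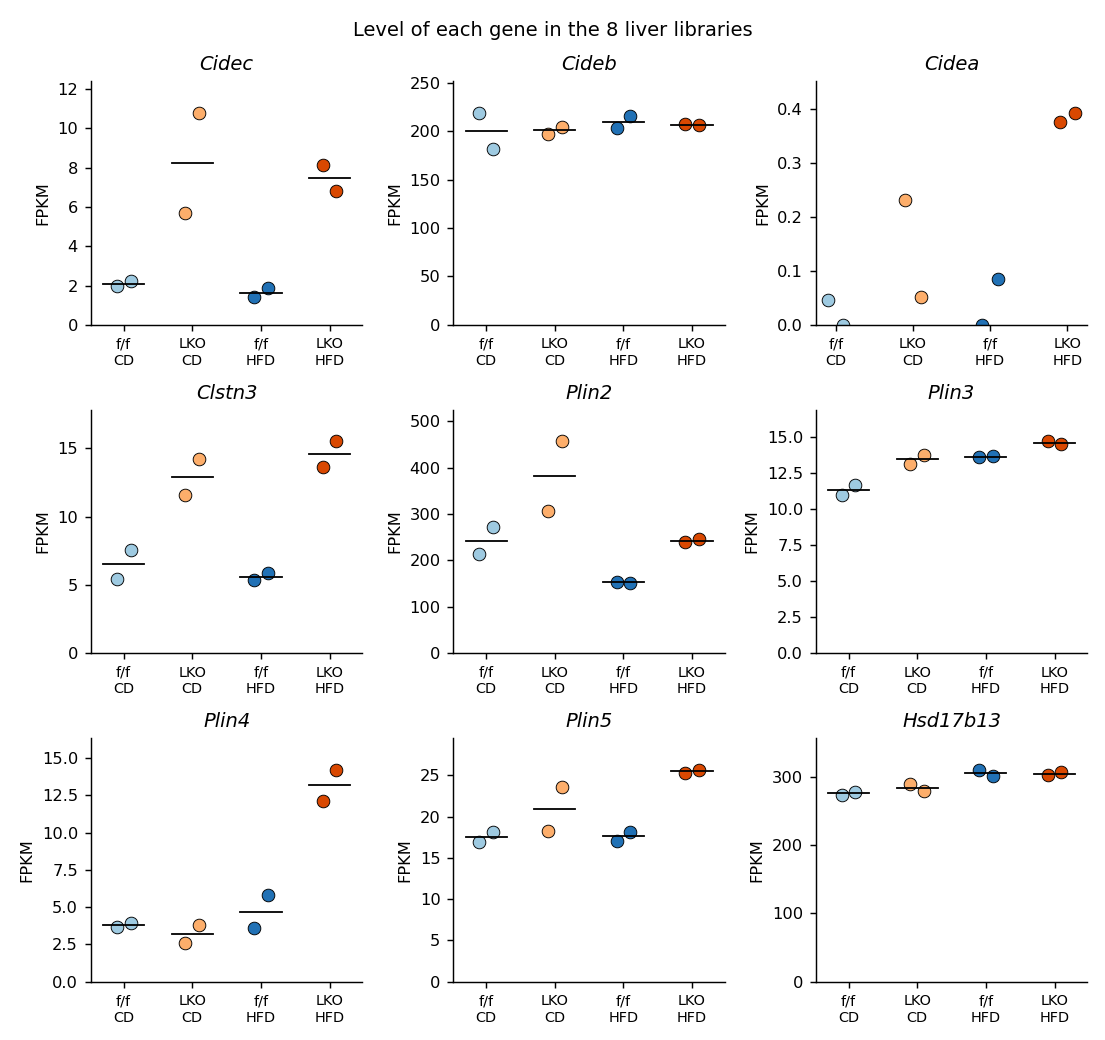
FPKM of each of the 9 genes (vertical axes from 0) in the 8 liver libraries, by genotype and diet. Points are libraries and lines are group means (none for *Cidea*, which has listed zeros). *Cidec* and *Clstn3* were higher in all 4 RORα LKO libraries than in all 4 RORα f/f libraries, whereas *Plin4* stood apart only in HFD-fed RORα LKO, at 12.1 and 14.2 FPKM.

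Of the 2 CIDE genes tested, *Cidec* was the one that differed between the genotypes on both diets. CIDEC, also known as FSP27, enlarges droplets by lipid transfer at droplet contacts. Its level was 1.96 and 2.24 FPKM in CD-fed RORα f/f, 5.67 and 10.8 FPKM in CD-fed RORα LKO, 1.41 and 1.87 FPKM in HFD-fed RORα f/f and 8.15 and 6.83 FPKM in HFD-fed RORα LKO. All 4 RORα LKO libraries lay above all 4 RORα f/f libraries, and in RORα LKO the 2 diets overlapped. The group means stood 4.56-fold apart on HFD (7.49 ± 0.93 against 1.64 ± 0.33 FPKM, SD, n = 2) and 3.92-fold apart on CD (8.23 ± 3.63 against 2.10 ± 0.20 FPKM, SD, n = 2). On the scale of quantile-normalized log2(FPKM + 1), which understates the change of low genes, RORα LKO exceeded RORα f/f by 1.70 ± 0.26 (SE) on HFD and by 1.50 ± 0.26 on CD. The CD value depended on single libraries: it was 1.92 without CD-fed RORα LKO replicate 1 and 1.09 without replicate 2.

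*Cideb*, the CIDE gene of hepatocytes, held 94.96 to 99.3% of the summed FPKM of the 3 CIDE genes in every library. It measured 219 and 181 FPKM in CD-fed RORα f/f, 198 and 204 FPKM in CD-fed RORα LKO, 204 and 216 FPKM in HFD-fed RORα f/f and 208 and 207 FPKM in HFD-fed RORα LKO. The 4 groups overlapped, and the other 6 libraries lay between the 2 replicates of CD-fed RORα f/f. The log2 difference between genotypes was 0.00 ± 0.09 (SE) on HFD and 0.01 ± 0.09 on CD. *Cideb* shares bases with *Nop9* on the opposite strand, and the library kit did not mark strand, but *Nop9* reached only 3.60 to 4.60 FPKM. *Cidea*, the CIDE gene of brown fat, was listed at 0.05 and 0 FPKM in CD-fed RORα f/f, 0.23 and 0.05 FPKM in CD-fed RORα LKO, 0 and 0.09 FPKM in HFD-fed RORα f/f and 0.38 and 0.39 FPKM in HFD-fed RORα LKO. The HFD-fed RORα LKO libraries were the highest, at a level too low to be tested.

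*Cidec* therefore took a small and shifting share of the CIDE total. Its share was 0.89 and 1.22% in CD-fed RORα f/f, 2.78 and 5.02% in CD-fed RORα LKO, 0.69 and 0.86% in HFD-fed RORα f/f and 3.77 and 3.19% in HFD-fed RORα LKO. The summed CIDE FPKM itself ran from 184 to 221 without a gap between groups.

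**Figure D2:**
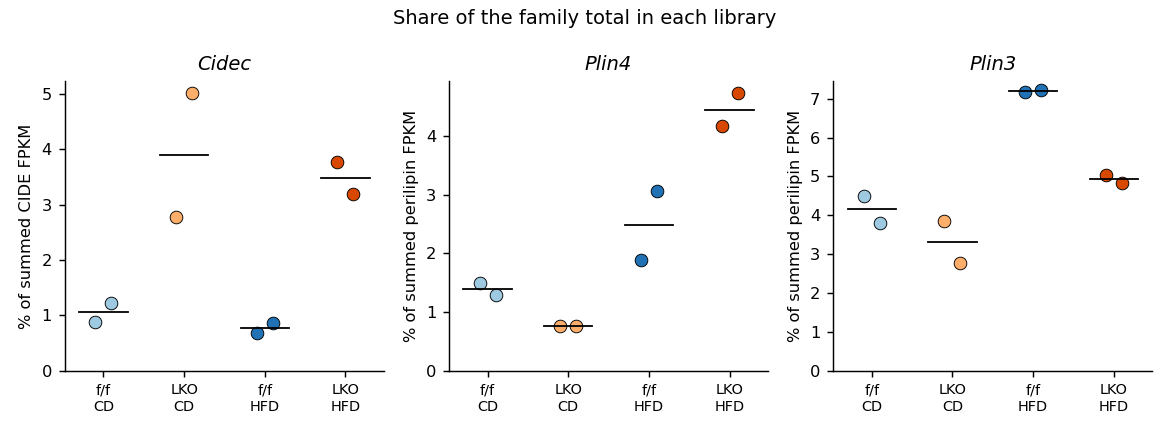
Share (%) of *Cidec* in the summed FPKM of the 3 CIDE genes, and of *Plin4* and *Plin3* in the summed FPKM of the perilipin genes, in each library (points) with group means (lines); axes start at 0. The *Cidec* share reached 5.02% at most, and the *Plin4* share was highest in HFD-fed RORα LKO (4.16 and 4.73%).

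Among the perilipins, *Plin2* supplied most of the transcript. The PLIN2 protein is held stable by droplets and coats most of them in the hepatocyte. Its level was 213 and 272 FPKM in CD-fed RORα f/f, 306 and 456 FPKM in CD-fed RORα LKO, 155 and 151 FPKM in HFD-fed RORα f/f and 240 and 246 FPKM in HFD-fed RORα LKO. On each diet both RORα LKO libraries were above both RORα f/f libraries, and within each genotype both HFD libraries were below both CD libraries, so HFD-fed RORα LKO lay inside the range of CD-fed RORα f/f. The genotype means stood 1.59-fold apart on HFD and 1.57-fold apart on CD, a log2 difference of 0.69 ± 0.20 (SE) and 0.60 ± 0.20. CD-fed RORα LKO was the least even group (381 ± 107 FPKM, SD, n = 2), and the CD difference was 0.31 without its replicate 2 and 0.89 without its replicate 1. It also fell below 0.60 to 0.42 without CD-fed RORα f/f replicate 1.

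*Plin4* showed another pattern. PLIN4 is a long perilipin built of a repeated amphipathic helix that coats droplets of adipocytes and muscle. It measured 3.65 and 3.97 FPKM in CD-fed RORα f/f, 2.59 and 3.77 FPKM in CD-fed RORα LKO, 3.57 and 5.79 FPKM in HFD-fed RORα f/f and 12.1 and 14.2 FPKM in HFD-fed RORα LKO. The HFD-fed RORα LKO libraries were above the other 6, which overlapped one another. RORα LKO exceeded RORα f/f 2.82-fold on HFD, a log2 difference of 1.36 ± 0.21 (SE), whereas the CD difference was -0.23 ± 0.21. The difference of these 2 differences was 1.59 ± 0.30, the largest of the 8 genes, the others lying between -0.14 and 0.35. It was 1.30 without HFD-fed RORα f/f replicate 1 and 1.89 without replicate 2 of that group. The gene ends within *Hdgfl2* on the other strand (7.57 to 10.4 FPKM), whose reads at the shared bases cannot be told apart from those of *Plin4*. The shared stretch (chr17:56100591-56100607) is short beside the 5756 bases of the longest *Plin4* transcript.

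*Plin5* and *Plin3* differed less. PLIN5 ties droplets to mitochondria in tissues that burn fat. *Plin5* was at 17.0 and 18.1 FPKM in CD-fed RORα f/f, 18.2 and 23.6 FPKM in CD-fed RORα LKO, 17.1 and 18.1 FPKM in HFD-fed RORα f/f and 25.3 and 25.7 FPKM in HFD-fed RORα LKO. The HFD-fed RORα LKO libraries were the highest and stood clear of HFD-fed RORα f/f, while CD-fed RORα LKO replicate 1 lay only just above the higher CD-fed RORα f/f library. The genotype log2 difference was 0.54 ± 0.12 (SE) on HFD and 0.24 ± 0.12 on CD, and the CD value was 0.06 without CD-fed RORα LKO replicate 2 and 0.42 without replicate 1. PLIN3 is a cytosolic perilipin of most tissues that moves onto newly formed droplets. *Plin3* ran from 11.0 to 11.7 FPKM in CD-fed RORα f/f, from 13.1 to 13.7 FPKM in CD-fed RORα LKO, from 13.6 to 13.7 FPKM in HFD-fed RORα f/f and from 14.5 to 14.7 FPKM in HFD-fed RORα LKO. Its genotype differences were small (0.11 ± 0.07 on HFD and 0.25 ± 0.07 on CD).

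The summed FPKM of the perilipins, *Plin1* included, was 245 and 306 in CD-fed RORα f/f, 340 and 498 in CD-fed RORα LKO, 189 and 189 in HFD-fed RORα f/f and 292 and 300 in HFD-fed RORα LKO. *Plin2* held 87.1 to 91.7% of this sum in the 4 CD libraries and 80.1 to 82.1% in the 4 HFD libraries. *Plin4* made up 4.16 and 4.73% in HFD-fed RORα LKO and at most 3.06% in any other library. *Plin1*, the perilipin of white adipocytes, was listed at 0 in 5 of the 8 libraries and at no more than 0.05 FPKM in the rest.

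*Clstn3* encodes calsyntenin 3, and the same locus gives a shorter form in adipocytes that acts on droplets together with CIDE proteins. One value per gene is given, so the 2 forms are not told apart here. *Clstn3* was at 5.43 and 7.59 FPKM in CD-fed RORα f/f, 11.6 and 14.2 FPKM in CD-fed RORα LKO, 5.35 and 5.86 FPKM in HFD-fed RORα f/f and 13.6 and 15.5 FPKM in HFD-fed RORα LKO. As for *Cidec*, the 4 RORα LKO libraries lay above the 4 RORα f/f libraries. The means stood 2.60-fold apart on HFD and 1.98-fold apart on CD, a log2 difference of 1.26 ± 0.16 (SE) and 0.90 ± 0.16. Without CD-fed RORα f/f replicate 1 or replicate 2 the CD value was 0.70 or 1.10. *Hsd17b13*, an abundant droplet-bound dehydrogenase of hepatocytes, differed little by genotype. It measured 273 and 278 FPKM in CD-fed RORα f/f, 289 and 279 FPKM in CD-fed RORα LKO, 310 and 301 FPKM in HFD-fed RORα f/f and 302 and 308 FPKM in HFD-fed RORα LKO, and its genotype log2 difference was 0.03 ± 0.07 (SE) on both diets. The genotypes overlapped on HFD, whereas on CD the deposited FPKM of RORα LKO lay just above those of RORα f/f and the quantile-normalized values overlapped.

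Read together on the quantile-normalized scale, 6 of the 8 genes (*Cidec*, *Clstn3*, *Plin2*, *Plin3*, *Plin4* and *Plin5*) had both RORα LKO libraries above both RORα f/f libraries on HFD, where 21.4% of all genes tested did. On CD 5 of the 8 did so, all but *Plin4* of these, against 21% of all genes, and 6 did so without normalization or with median centring. The same 5 did so on both diets, against 6.28% of all genes. The median log2 difference of the 8 genes was 0.61 on HFD and 0.25 on CD, beside 0.00 for all genes on both diets. None of the 8 passed an adjusted p of 0.05 for genotype (limma, Benjamini-Hochberg over all genes) on either diet, and of all genes tested 0.043% passed on HFD and 0.0172% on CD. Because these values led to the choice of the genes, nothing is read from any of these counts, and the adjusted p is no test of the 8 genes. The genes below an unadjusted p of 0.05 numbered 1114 on HFD and 1428 on CD. In bulk liver, fewer cells of a type and less RNA per cell cannot be told apart.

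**Figure D3:**
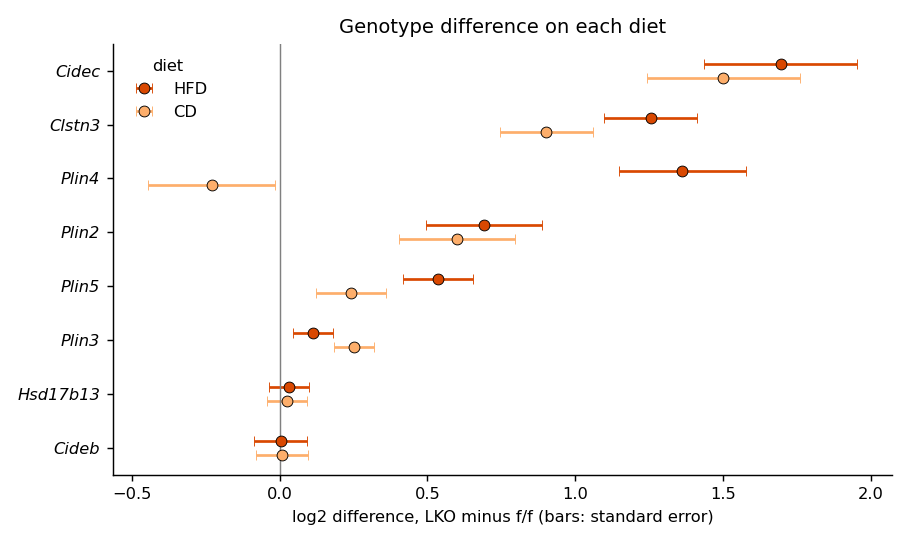
Genotype difference (RORα LKO minus RORα f/f, on the quantile-normalized log2(FPKM + 1) scale, horizontal axis) of the 8 genes on HFD (dark) and CD (light). Points are fitted differences and bars their standard errors from 2 libraries a group; *Plin4* is the gene whose points lie furthest apart, at 1.36 on HFD and -0.23 on CD.

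Replicate 2 was the higher of the 2 CD-fed RORα LKO libraries for 7 of the 8 genes, while 49.7% of all genes tested were higher in that library. In CD-fed RORα f/f, replicate 2 was also the higher for 7 of the 8 genes, but the share of all genes was not taken there, so this count is not read further. The replicate numbers are labels without an order, and no direction is read from them. In each CD group the same pool of 2 mice was the higher for *Cidec*, *Clstn3*, *Plin2*, *Plin3* and *Plin5*. The part of this spread between pools in the CD differences was not tested beyond leaving out each library.

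Promoter sequence is shown for 4 of the genes. *Cidec* and *Plin2* separated by genotype on both diets, *Plin4* on HFD only, and *Cideb* on neither. *Clstn3*, *Plin3* and *Plin5* also separated on both diets and are not shown, so the 4 do not stand for all genes that separated. Receptors such as the PPARs bind DR1, a pair of half-sites in a row spaced by 1 base, and RORα binds RORE, a single half-site after an A- and T-rich stretch. The half-site was searched as AGGTCA or GGGTCA on both strands, in RefSeq windows of 300 bases that end shortly after the start site (GRCm38.p6). Windows were found for 8 of the genes, some with 2 start sites. Of the 11 windows 5 held a half-site, against 27.5% of all 32851 windows, and the 4 genes concerned were *Plin2*, *Plin5*, *Cideb* and *Hsd17b13*. None of the 11 held an exact DR1 or RORE, which 0.128% and 0.384% of all windows did. With up to 2 mismatches DR1 had a match in 4 windows, against 9.69% of all windows, and these were windows of *Plin2*, *Plin4*, *Plin5* and *Cideb*. The DR1 matches of *Plin2* and *Cideb* overlap a half-site, whereas those of *Plin4* and *Plin5* contain none. The windows of *Cidec*, *Clstn3* and *Plin3* held neither motif, which says only that these letters are absent from these windows.

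The sequences run 5′ to 3′ on the strand of the gene (all on the minus strand), with the DR1 match in capitals. The match begins 225 bases before the start site in *Plin2* (chr4:86670010-86670309, 1 mismatch) and 4 bases before it in *Cideb* (chr14:55758375-55758674, 2 mismatches), and at base 24 after it in *Plin4* (chr17:56109733-56110032, 2 mismatches). The *Cidec* window (chr6:113435711-113436010) has no capitals. A match is a description of the letters and no evidence of binding.
Plin2: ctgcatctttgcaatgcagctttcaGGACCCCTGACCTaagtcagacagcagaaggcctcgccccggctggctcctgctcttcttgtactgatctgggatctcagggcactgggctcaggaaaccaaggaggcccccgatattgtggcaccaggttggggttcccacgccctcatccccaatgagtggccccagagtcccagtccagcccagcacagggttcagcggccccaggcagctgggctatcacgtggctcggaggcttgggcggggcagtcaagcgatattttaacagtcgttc
Plin4: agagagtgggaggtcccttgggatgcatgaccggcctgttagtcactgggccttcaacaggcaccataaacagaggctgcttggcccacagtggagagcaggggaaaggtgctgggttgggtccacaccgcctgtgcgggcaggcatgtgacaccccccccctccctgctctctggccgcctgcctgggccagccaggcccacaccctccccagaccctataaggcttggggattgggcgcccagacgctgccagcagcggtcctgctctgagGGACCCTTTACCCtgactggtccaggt
Cidec: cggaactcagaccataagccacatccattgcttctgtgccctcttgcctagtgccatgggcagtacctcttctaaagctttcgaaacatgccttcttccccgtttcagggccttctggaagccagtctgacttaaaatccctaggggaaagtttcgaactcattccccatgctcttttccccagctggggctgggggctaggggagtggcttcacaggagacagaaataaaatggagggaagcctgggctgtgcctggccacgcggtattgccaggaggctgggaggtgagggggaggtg
Cideb: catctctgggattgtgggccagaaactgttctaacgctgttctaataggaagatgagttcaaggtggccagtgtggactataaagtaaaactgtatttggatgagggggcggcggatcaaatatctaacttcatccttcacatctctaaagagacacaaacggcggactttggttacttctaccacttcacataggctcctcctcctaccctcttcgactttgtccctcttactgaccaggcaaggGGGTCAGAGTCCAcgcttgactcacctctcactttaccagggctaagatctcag

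The genes whose pattern was most like that of *Cidec* over the 8 libraries, by Pearson r of normalized log2 values among 10591 genes with no library at 0, were *Adra1a* (r = 0.991), *Hlcs* (0.970), *Ndst1* (0.968), *Clstn3* (0.963) and *Uqcr11* (0.962). *Adra1a* encodes an adrenergic receptor, and its FPKM ran only from 2.05 to 3.34 where *Cidec* ran from 1.41 to 10.8. A high r here thus went with unlike sizes of change. Most like *Plin2* were *Tmem245* (0.978), *Paqr7* (0.956), *Fitm2* (0.956), *2010003K11Rik* (0.950) and an unnamed gene, ENSMUSG00000084322 (0.941). *Fitm2* encodes an endoplasmic reticulum protein needed for droplets to bud. It measured 17.3 and 24.0 FPKM in CD-fed RORα f/f, 20.2 and 29.0 FPKM in CD-fed RORα LKO, 14.2 and 15.3 FPKM in HFD-fed RORα f/f and 19.99 and 20.2 FPKM in HFD-fed RORα LKO. No gene was on both lists of 5. The 8 points of each r share 4 groups, so these values describe the libraries and carry no p.

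The effect of diet averaged over the genotypes is a separate contrast from the genotype differences, and it was tested. It draws on the same libraries and the same residual variance as those differences. The *Plin4* rise lay mainly in the HFD-fed RORα LKO libraries, which also make its genotype difference on HFD. Its call, and the counts that include it, are therefore given as a description. On HFD *Plin4*, *Hsd17b13* and *Plin3* were higher at an adjusted p under 0.05 (limma, Benjamini-Hochberg over 11634 genes) and none was lower, so 3 of 8 rose and 0 of 8 fell, where 5.04% of all genes tested rose and 4.86% fell. Of all genes called, 50.9% were higher on HFD, and without quantile normalization 36.1% were. *Plin4* rose by 1.03 ± 0.15 (SE, adjusted p = 0.0119 by limma), *Hsd17b13* by 0.29 ± 0.05 (adjusted p = 0.0175) and *Plin3* by 0.21 ± 0.05 (adjusted p = 0.0403) on the log2 scale. *Plin2* went the other way, at -0.52 ± 0.14, and did not pass (adjusted p = 0.0632 by limma, 95% interval -0.85 to -0.19).

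The average hid unlike parts for *Plin4* but not for *Hsd17b13*. For *Plin4* the HFD minus CD difference was 1.83 in RORα LKO and 0.23 in RORα f/f, so the average describes neither genotype. For *Hsd17b13* it was 0.29 in RORα LKO and 0.28 in RORα f/f, and its 4 HFD libraries were above its 4 CD libraries (301 to 310 against 273 to 289 FPKM). For *Plin3* the differences were 0.14 and 0.28, and for *Plin2* -0.48 and -0.57. The *Plin2* difference in RORα LKO was -0.77 without CD-fed RORα LKO replicate 1 and -0.18 without replicate 2. The *Plin4* difference in RORα f/f was 0.53 without HFD-fed RORα f/f replicate 1 and -0.06 without replicate 2. The within-genotype values share libraries with the genotype comparisons and are given side by side only. The averages for *Plin5* (0.18, 95% interval -0.02 to 0.38), *Cideb* (0.13, -0.01 to 0.28), *Clstn3* (0.02, -0.24 to 0.29) and *Cidec* (-0.13, -0.57 to 0.30) did not pass (limma adjusted p = 0.225, 0.217, 0.924 and 0.685). For *Cidec* the interval was wide enough to hold changes in either direction.

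**Figure D4:**
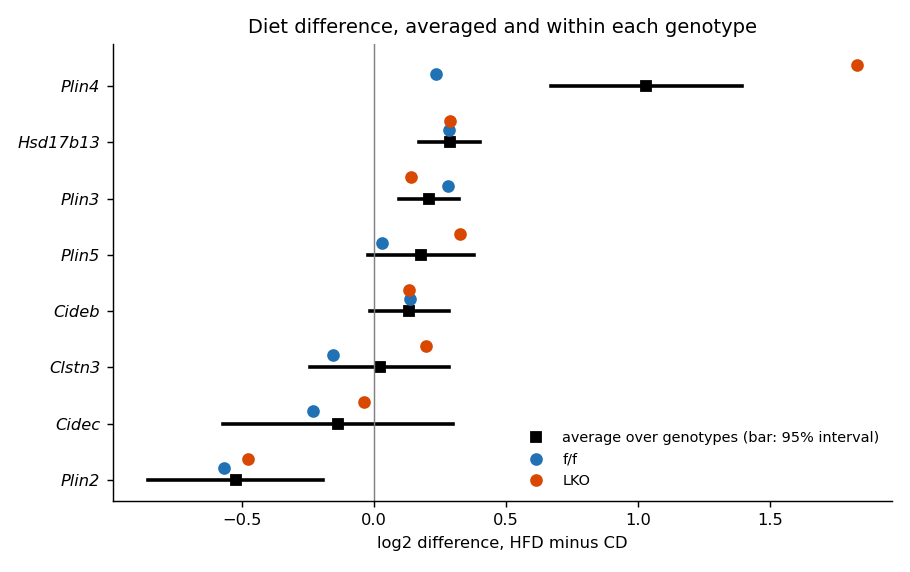
Diet difference (HFD minus CD, quantile-normalized log2(FPKM + 1), horizontal axis) of the 8 genes: squares are the average over genotypes with its 95% interval, and circles the value within RORα f/f (blue) and RORα LKO (orange). The circles of *Plin4* lie at 0.23 and 1.83, those of *Hsd17b13* at 0.28 and 0.29.

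The calls of *Hsd17b13* and *Plin3* depended on the scaling, and each of the 3 calls was lost in some fits with a library left out. Those fits have fewer degrees of freedom. Over the 8 omissions the difference itself moved little, from 0.26 to 0.31 for *Hsd17b13* and from 0.19 to 0.23 for *Plin3*. *Hsd17b13* rose by 0.13 without normalization (limma adjusted p = 0.12) and by 0.15 with median centring (adjusted p = 0.0696). It did not pass without CD-fed RORα f/f replicate 2 (0.0505), CD-fed RORα LKO replicate 2 (0.056), HFD-fed RORα f/f replicate 1 (0.0528) or HFD-fed RORα LKO replicate 1 (0.0662) or 2 (0.0613). *Plin3* did not pass without any one of the 8 libraries (limma adjusted p from 0.0765 to 0.125), nor with a replicate block (0.0626) or without normalization (0.0629). *Plin4* rose by 0.99 without normalization and by 1.02 with median centring (limma adjusted p = 0.0129 in both), and did not pass without CD-fed RORα f/f replicate 2 (0.0532) or HFD-fed RORα LKO replicate 2 (0.0569), its difference staying between 0.88 and 1.18 over the 8 omissions. *Plin2* fell with limma adjusted p = 0.0347 without normalization, 0.0408 with median centring, 0.0306 with only genes above 1 FPKM in all libraries and 0.0253 without CD-fed RORα LKO replicate 1.

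Other genes of the droplet were taken from 4 lists of 51 symbols, of which 49 were matched and 44 tested. With diet averaged over genotypes 4 of the 44 rose and 7 fell, where 5.04% of all genes tested rose and 4.86% fell, and the median of the 44 was -0.04 beside 0.01 for all genes. The risers were *Lpin1* (0.42), which encodes the phosphatase that makes diacylglycerol, *Dgat2* (0.28), whose enzyme completes triglyceride synthesis, the acyltransferase gene *Agpat3* (0.27) and the small GTPase gene *Rab7* (0.24), each on the log2 scale with limma adjusted p from 0.0137 to 0.0275. The average of *Lpin1* described neither genotype, its diet difference being 0.08 in RORα f/f and 0.76 in RORα LKO. *Dgat2* stood at 207, 205, 205 and 214 FPKM in the 4 CD libraries and at 260 and 261 FPKM in HFD-fed RORα f/f, with 210 and 219 FPKM in HFD-fed RORα LKO.

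Of the 7 that fell, *Nsdhl* (-1.63), *Sqle* (-1.57), *Hsd17b7* (-0.76) and *Lss* (-0.62) encode enzymes of cholesterol synthesis, some of which also sit on droplets. The other three were *Acsl4* (-0.85) and *Acsl3* (-0.62), which activate fatty acids, and the methyltransferase-like gene *Mettl7b* (-0.58). *Sqle*, for squalene epoxidase, was at 11.7 to 12.3 FPKM in the 4 CD libraries and at 2.02 to 5.84 FPKM in the 4 HFD libraries, with no overlap. Limma adjusted p values for the 7 ran from 0.0061 to 0.0347.

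**Figure D5:**
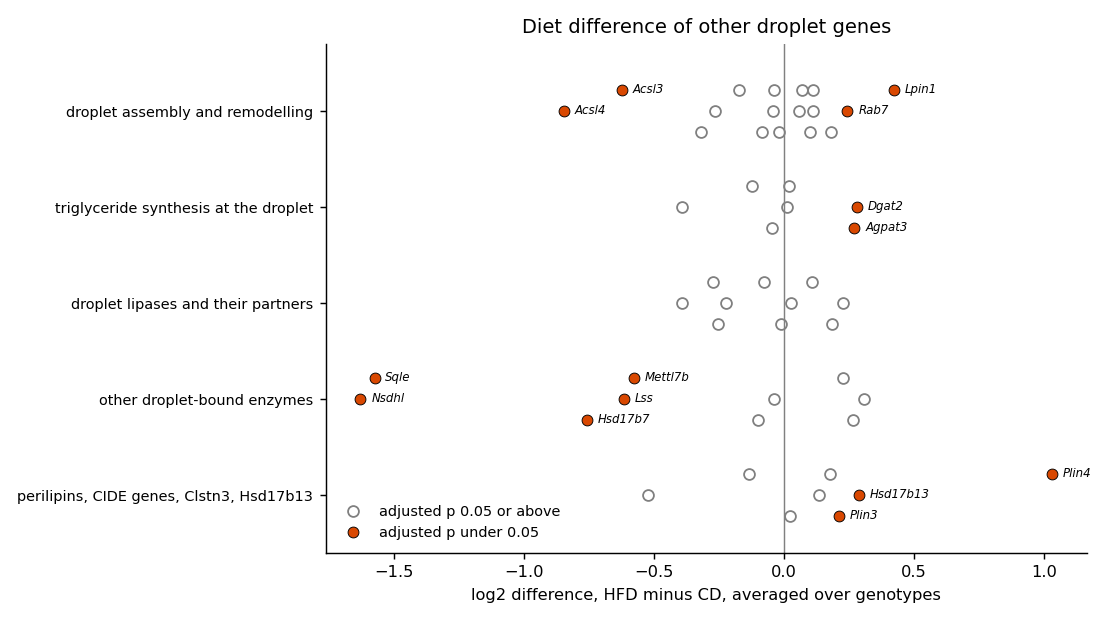
Diet difference averaged over genotypes (HFD minus CD, log2, horizontal axis) of the tested genes in 4 droplet lists and of the 8 droplet coat and CIDE genes (bottom). Each point is a gene, spread vertically for legibility, and filled points have a limma adjusted p under 0.05: 4 list genes lie to the right and 7 to the left, down to -1.63 for *Nsdhl*.

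Of the 10 tested genes of droplet lipases and their partners none was called for averaged diet, where 5.04% of all genes tested rose and 4.86% fell. Nothing is read from so small a count. *Pnpla2*, for the lipase ATGL that opens triglyceride breakdown, had a diet difference of -0.39 (limma adjusted p = 0.105), its activator gene *Abhd5* one of -0.22 (adjusted p = 0.0577) and its inhibitor gene *G0s2* one of -0.08 (adjusted p = 0.552). All HFD libraries of *Pnpla2* (42.6 to 46.8 FPKM) lay below all its CD libraries (49.0 to 76.5 FPKM), while the diets overlapped for *Abhd5* and *G0s2*. *G0s2* was at 175 and 151 FPKM in CD-fed RORα f/f, 228 and 277 FPKM in CD-fed RORα LKO, 158 and 153 FPKM in HFD-fed RORα f/f and 210 and 206 FPKM in HFD-fed RORα LKO. Its RORα LKO libraries were above its RORα f/f libraries on both diets, by 0.44 and 0.61 on the log2 scale on HFD and CD, without passing (limma adjusted p = 0.268 and 0.154). *Hilpda*, for another ATGL inhibitor, and *Rab18*, for a droplet GTPase, separated in opposite directions on the 2 diets on the quantile-normalized scale. In deposited FPKM the genotypes overlapped for *Rab18* on HFD (60.4 and 63.3 in RORα f/f, 61.9 and 64.0 in RORα LKO). *Hilpda* differed by -0.31 on HFD and 0.41 on CD and *Rab18* by 0.08 and -0.17, and the test of the difference gave limma adjusted p = 0.576 for both.

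For genotype, 1 of the 44 list genes passed, *Lpin1*, where 0.043% of all genes tested passed on HFD and 0.0172% on CD. It was lower in RORα LKO on HFD (log2 difference -1.22, limma adjusted p = 0.0457) and on CD (log2 difference -1.91, adjusted p = 0.0063). The lists were chosen with earlier results of these data known, so the genotype p-values of all listed genes are given as a description. The budding gene *Fitm1* was higher by 0.88 and 0.82 without passing (limma adjusted p = 0.228 and 0.202). *Bscl2*, for seipin, which shapes the neck of growing droplets, differed by 0.08 on HFD and 0.24 on CD (limma adjusted p = 0.848 and 0.425). *Dgat1*, for the other enzyme of the last triglyceride step, differed by -0.04 and -0.11 (limma adjusted p = 0.929 and 0.626), and the droplet dehydrogenase gene *Hsd17b11* by 0.32 and 0.05 (adjusted p = 0.434 and 0.875).

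Of the 6 genes of PPAR receptors and their partners, *Rxra* (0.27, limma adjusted p = 0.0153) and *Pparg* (0.25, adjusted p = 0.0466) rose with averaged diet, where 5.04% of all genes tested rose. For *Pparg* the HFD minus CD difference was 0.10 in RORα f/f and 0.40 in RORα LKO, so the average describes neither genotype. The *Pparg* call, close to the threshold, was not checked with other scalings or with a library left out. *Pparg* was at 3.83 and 4.29 FPKM in CD-fed RORα f/f, 4.55 and 4.53 FPKM in CD-fed RORα LKO, 4.22 and 4.46 FPKM in HFD-fed RORα f/f and 5.86 and 6.38 FPKM in HFD-fed RORα LKO. Its highest 2 libraries were those of HFD-fed RORα LKO. Its genotype log2 difference was 0.42 on HFD and 0.12 on CD (limma adjusted p = 0.228 and 0.583). *Ppara*, far more abundant at 35.7 to 55.5 FPKM, differed by 0.17 and 0.07 (limma adjusted p = 0.74 and 0.875).

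Markers of other cell types were set beside these values. Of 12 adipocyte markers 8 were below 1 FPKM in every library, the highest at 0.464, and *Ucp1* was listed at 0 throughout. *Adipoq* and *Lep* were at no more than 0.38 and 0.02 FPKM. Without *Car3*, a gene that hepatocytes express strongly, the markers summed to 11.8 and 12.3 FPKM in CD-fed RORα f/f, 17.1 and 16.4 FPKM in CD-fed RORα LKO, 14.1 and 15.9 FPKM in HFD-fed RORα f/f and 20.8 and 20.1 FPKM in HFD-fed RORα LKO. This sum was higher in RORα LKO on both diets, as *Cidec* was, although only 4 of the 11 markers had the higher mean in RORα LKO on HFD and 5 on CD. It included *Cfd* at 5.45 and 5.29 FPKM in HFD-fed RORα LKO against 0.49 and 1.87 FPKM in HFD-fed RORα f/f. Without *Cfd* as well, the sums were 11.7 and 11.8 FPKM in CD-fed RORα f/f, 14.3 and 15.9 FPKM in CD-fed RORα LKO, 13.6 and 14.1 FPKM in HFD-fed RORα f/f and 15.4 and 14.8 FPKM in HFD-fed RORα LKO. These sums still held *Adrb3*, at 4.82 and 3.82 FPKM in CD-fed RORα f/f and 6.69 and 8.19 FPKM in CD-fed RORα LKO. On HFD the genotypes overlapped for *Adrb3*. Of the 4 adipocyte markers tested none was called for genotype, and *Fabp4* rose with diet (0.37, limma adjusted p = 0.0332). The part of these markers in the droplet gene differences was not tested.

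Hepatocyte markers other than *Alb* summed to 22709 to 26103 FPKM over the 8 libraries, with groups that overlapped. On the quantile-normalized scale 4 of the 10 hepatocyte markers rose with averaged diet by limma, where 5.04% of all genes did. Among these, *Ttr* (0.39) and *Apob* (0.26) hardly changed in deposited FPKM. The ratio of HFD to CD means in RORα f/f and RORα LKO was 1.03 and 0.96 for *Ttr* and 1.03 and 1.06 for *Apob*. For *Hnf4a* it was 1.16 and 1.14, and for *Cyp2e1* 1.39 and 1.54. Of 10 stellate cell markers 4 rose with averaged diet (median 0.36, limma) against the same 5.04%, and their sum was 50.2 to 78.2 FPKM on CD and 89.1 to 122 FPKM on HFD. The 9 tested Kupffer cell and macrophage markers were all above 0 for genotype on HFD (median 0.39) with none called, while on CD 1 was above 0 and 8 were below (median -0.20), and their HFD sums overlapped (79.0 and 65.1 FPKM in RORα f/f, 120 and 76.4 FPKM in RORα LKO). The part of these cell types in the diet differences of *Plin4*, *Hsd17b13* and *Plin3* was not tested.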

How the data were processed

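Poly(A) RNA of 8 pooled liver samples was sequenced as paired ends with a TruSeq kit. The authors trimmed reads with cutadapt 1.0, aligned them to GRCm38 with TopHat2 2.0.7 and deposited Cufflinks FPKM values, 1 row per gene and 1 column per library. Read counts and depth were not given with the FPKM table. Following the study's methods, genes with FPKM above 1 in at least 1 of 8 libraries were kept (11634 of 38283), and log2(FPKM + 1) was quantile-normalized. In place of its permutation procedure, limma 3.58.1 (R 4.3.3) was fitted with a mean for each of the 4 groups, a variance trend and Benjamini-Hochberg adjustment over all genes. The residual degrees of freedom were 4. The replicates were separate pools of mice, per the study's methods, so p-values measure the spread between pools. Group membership came from the sample titles.

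Genes, lists and tests were chosen with earlier results of these data known. Named genes were the 9 droplet genes, 16 further droplet and PPAR genes whatever their values, other list genes passing for averaged diet, and the 5 genes most like *Cidec* and *Plin2*. Same-numbered replicates did not deviate together (r from -0.004 to 0.149), so the numbers were not used as pairs. Alternatives were normalization, pseudocount (0.1), low-value filter, trend, replicate block, the 4 libraries of a comparison alone, and omission of each library. On simulated data with 200 changed genes limma called 198 genes, 10 of them unchanged, for the 11634 genes. Values were summarized in Python 3.11.15 with pandas 2.3.3. *Ldaf1* and *Spart* had no match in the table.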

Additional observations from a re-analysis of the deposited data

How the results depend on the processing

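Under the 8 omissions of 1 library, the genes called for averaged diet numbered 374 to 816 (1151 with all libraries), and 704 with FPKM above 0 as the filter; the droplet coat and CIDE genes called ranged from 0 to 3 against 3. For genotype the genes called were 4 to 21 on HFD (5 with all libraries) and 2 to 19 on CD (2 with all libraries), with 0 to 1 of the droplet genes on CD (*Cidec*, without CD-fed RORα LKO replicate 1). The genotype calls were 24 on HFD and 10 on CD with FPKM above 0, and on CD 7 with FPKM above 1 in all libraries, 4 without the variance trend, 1 with a pseudocount of 0.1 and 0 with its 4 libraries alone. With the 4 libraries of a comparison alone, diet calls were 5 in RORα f/f (155 in the joint fit) and 0 in RORα LKO (351 in the joint fit). With a replicate block 882 genes were called for averaged diet, and 1 droplet gene, *Clstn3*, for genotype on HFD; like the *Cidec* count on CD, whose fit has 1 library in the RORα LKO arm assumed to vary like the others, this is no test of genes chosen on that difference. *Plin3* did not pass (limma adjusted p = 0.0626), as it did not without normalization (0.0629), without the trend (0.061) or with FPKM above 0 (0.0551). The block changed no other droplet gene call. Direction turned for genes near 0 in averaged diet. *Clstn3* was -0.0034 without normalization and -0.078 to 0.12 over the omissions (below 0 at -0.078, -0.049, -0.013 and -0.016), and *Cidec* was -0.34 to 0.074. The cause of these shifts was not tested, apart from the fewer libraries or genes in each fit. A pseudocount of 0.1 gave *Cidec* 2.14 on HFD and 1.83 on CD. The unknown depth and 2 libraries a group limit low genes such as *Cidec* most.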
